A study of Arabidopsis thaliana with 7 samples.

Results

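DDB2 (AT5G58760) is the Arabidopsis thaliana gene for the protein that finds UV lesions in DNA, and its own sequence carried peaks of photolesion immunoprecipitation in every library, with and without UV. It is 1 of 37887 nuclear genes in the annotation, and it was chosen by name, with earlier results of these data known. Its peaks are those that overlap chromosome 5 positions 23730700 to 23734300 on TAIR10 by at least 1 base, with 20 kb on either side as local background. That window of 3601 bases held 17 of the 2936 peaks of the series. RefSeq places the gene at 23730450 to 23733707, a span of 3258 bases, so the window starts inside the gene and runs 593 bases past its far end. The RefSeq table used here gives neither strand nor exons, so positions are counted from the lower-coordinate end of the gene, and exons, introns, UTRs and the promoter were not told apart.

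UV light joins neighbouring pyrimidines of a DNA strand into cyclobutane pyrimidine dimers (CPDs). DDB2 pairs with DDB1 on a CUL4 ubiquitin ligase, and binds such lesions in chromatin. In mammals it passes them to XPC, whose plant counterpart is RAD4, at the start of the global branch of nucleotide excision repair. In plants in the light, photolyases also reverse the dimers directly. The series title places small RNAs in the recognition of CPDs.

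The material was DNA of seedlings of wild-type Col-0 at 3 weeks, raised under a photoperiod of 16 h of light and 8 h of darkness. The groups were 4 libraries from UV-treated plants, with 3000 J per square metre of UV-C in the labels, and 2 libraries labelled as not treated. The labels attach that dose to every sample, and the treatment field separates the groups. All 6 were immunoprecipitated with an anti-CPD antibody, and the peaks of each were called against input DNA prepared without antibody, which has 1 sample and no peak list here. Both groups have the same wild-type genotype, and the labels record no mutation or transgene at DDB2. They do not say how many plants went into a library, nor whether replicates were grown apart, so the p-values cover only library-to-library spread, part of which can be technical. The time between UV exposure and harvest is not in the labels.

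The lists held 228 to 677 peaks with UV and 433 and 587 without. Read depth is unknown, so a longer list may come from more reads or from more enriched sites. Each list has a floor of peak width, between 122 and 147 bases, at which 62.3% to 85.7% of its peaks lie. No peak has the same start and end in any pair of libraries. UV replicate 1 stands apart from the other libraries in what follows, so values with and without it are given. With 4 libraries against 2, the exact permutation test over all 15 ways to divide them cannot give a p below 0.0667, and no difference between UV and no UV could pass 0.05. With 1 UV library left out there are 10 ways and the smallest p is 0.1. With 1 no UV library left out there are 5 ways and the smallest p is 0.2, and the UV libraries alone then give the spread.

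Peaks lay on DDB2 and none lay in its flanks. All 17 lay between 293 bases into the gene and 509 bases past its end, and the 40 kb of flanks held 0 peaks in any library. Of the 17 genes in the window and flanks, DDB2 was the 1 with a peak. Over the nuclear chromosomes, 6.82% of stretches of the window's length held a peak in any library. Of protein-coding genes, 5.29% had one. Flanks and neighbours without a peak are thus common and are no result about this locus. The last covered base, at 23734216, lay 56 bases before cPT4, a cis-prenyltransferase gene, and the first, at 23730743, lay 600 bases after the end of AT5G58750. The nearest peak beyond the window was 26282 bases away in UV replicate 3 and 42312 bases away in no UV replicate 2. In the other 4 libraries it was at least 60271 bases away.

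Few genes were hit so often. DDB2 had a peak in 6 of 6 libraries, which 3 of 27432 nuclear protein-coding genes had (0.0109%). The same count, 3 genes, had a peak in all 4 UV libraries, 12 genes had one in both no UV libraries (0.0437%), and 1451 had one in at least 1 library (5.29%), of which 1396 had it in a single library. By bases covered, DDB2 held rank 2, 1, 1 and 3 among these genes in UV replicates 1 to 4. In no UV replicates 1 and 2 it held rank 3 and 1. It ranked 1 by the mean of all 6 libraries (967 bases), by the UV mean (1152.5 bases), by the no UV mean (595 bases), and by the mean without UV replicate 1 (586 bases). When the nuclear chromosomes were divided into 33092 stretches of the window's length, 2257 held a peak. In 9 of them, the DDB2 window included, all 6 libraries had a peak, so such recurrence was not limited to the 3 genes. The division was laid in step with the DDB2 window, so it took in all the DDB2 peaks and could cut clusters elsewhere. The DDB2 window held 17 peaks, as did a stretch on chromosome 3 at 14198853 to 14202453, where 5 libraries had a peak. The stretch adjoining it, at 14195252 to 14198852, held 7. The number of peaks in a stretch thus depends on where the division falls, and no rank is drawn from it.

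With UV, the gene was covered by 1 long peak in replicate 1 and by separate short ones in the other 3. UV replicate 1 had a single peak from 23730836 to 23734216, 3381 bases wide, which covered 88.2% of the gene and 509 bases past its end. UV replicate 2 had peaks at 23731880 to 23732015 (136 bases) and 23732522 to 23732766 (245 bases). Both lay in the middle and far parts of the gene. UV replicate 3 had 4 peaks, at 23730900 to 23731044 (145 bases), 23731345 to 23731565 (221 bases), 23732169 to 23732395 (227 bases) and 23732811 to 23732955 (145 bases). UV replicate 4 had 3, at 23731486 to 23731612 (127 bases), 23732459 to 23732730 (272 bases) and 23733035 to 23733254 (220 bases). Every peak of UV replicates 2 to 4 thus lay inside the gene and inside the long peak of UV replicate 1.

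Without UV, the gene also carried peaks, few and narrow in one library and the most of any library in the other. No UV replicate 1 had 2, at 23731734 to 23731862 and 23732665 to 23732793, both 129 bases wide, the floor of that list. No UV replicate 2 had 5, at 23730743 to 23730864 (122 bases), 23731072 to 23731606 (535 bases), 23732916 to 23733068 (153 bases), 23733553 to 23733674 (122 bases) and 23733803 to 23733983 (181 bases). The last of these began after the gene's end, the 1 peak of the 17 wholly outside DDB2. The 535-base peak was the widest outside UV replicate 1 and ranked 2 by width among the 520 nuclear peaks of its list. Over all 6 libraries, 7 of the 17 peaks were at the floor width of their list and 10 were wider.

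**Figure D1:**
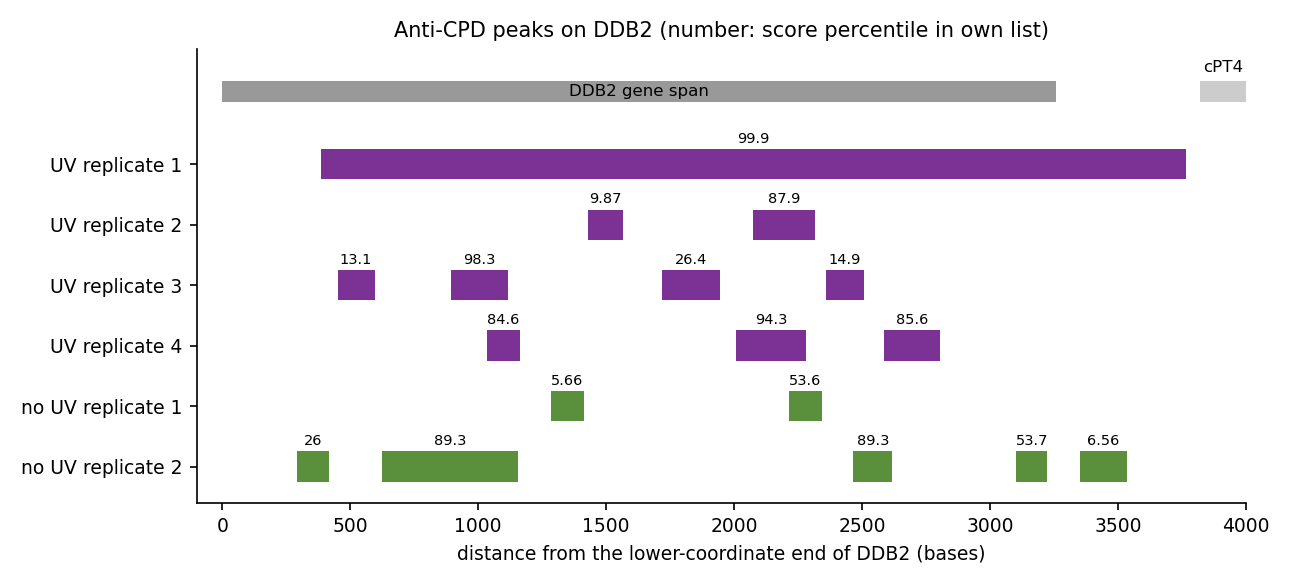
Peaks on DDB2 in each library, by distance in bases from the lower-coordinate end of the gene, with UV libraries above no UV libraries. Each bar is a peak and the number over it is the percentile of its score within its own list. The 1 peak of UV replicate 1 runs along nearly the whole gene, while the other libraries have 2 to 5 shorter peaks at places that mostly differ.

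UV and no UV libraries overlapped in how much of DDB2 they covered. UV replicates 1 to 4 had 1, 2, 4 and 3 peaks, against 2 and 5 peaks for no UV replicates 1 and 2. Their numbers averaged 2.5 ± 1.29 in UV libraries (SD, n = 4) and 3.5 ± 2.12 in no UV libraries (SD, n = 2; exact permutation p = 0.6). Covered bases of the window were 3381, 381, 738 and 619 with UV and 258 and 1113 without. UV libraries averaged 1279.8 ± 1409 bases and no UV libraries 685.5 ± 605 bases (exact permutation p = 0.8, n = 4 and 2). No UV replicate 2 thus covered more of the window than 3 of the 4 UV libraries, and no UV replicate 1 covered the least of all. As a share of the gene, the values were 88.2%, 11.7%, 22.7% and 19.0% with UV and 7.92% and 28.6% without. UV libraries averaged 35.4% ± 35.5 and no UV libraries 18.3% ± 14.6 (exact permutation p = 0.733, n = 4 and 2). The sign of this difference rested on UV replicate 1: UV minus no UV was 17.1 percentage points with it and -0.481 points without it (exact permutation p = 1, n = 3 and 2). For covered bases UV minus no UV was 594 bases with that library and -106 bases without it (exact permutation p = 0.8, n = 3 and 2).

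Scaled for the length of the list, as a share of nuclear covered bases, the DDB2 window ranged from 0.478% to 4.46%. The window held 4.46%, 1.43%, 1.24% and 0.918% of all nuclear covered bases in UV replicates 1 to 4, against 0.478% and 1.64% in no UV replicates 1 and 2. It is 1 of 33092 stretches of that length, of which 2257 held a peak in any library. An even spread over all stretches is thus no fit measure for these shares. In no UV replicate 1 the share came from 2 peaks at the floor width of its list. The share averaged 2.01% ± 1.65 in UV libraries and 1.06% ± 0.819 in no UV libraries (exact permutation p = 0.6, n = 4 and 2), and the groups overlapped. Without UV replicate 1 the UV mean was 0.138 percentage points above the no UV mean (exact permutation p = 0.8, n = 3 and 2). The UV mean was 0.376 points above without no UV replicate 1 and 1.53 points above without no UV replicate 2 (exact permutation p = 1 and 0.4, n = 4 and 1).

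From first to last covered base, the peaks spanned 3381, 887, 2056 and 1769 bases with UV and 1060 and 3241 bases without. No UV replicate 2 thus reached nearly as far along the locus as the long peak of UV replicate 1, but covered 34.3% of its span against 100% in UV replicate 1. The other UV libraries covered 43.0%, 35.9% and 35.0% of their spans and no UV replicate 1 covered 24.3%. Mean spans were 2023 ± 1033 bases in UV libraries and 2150.5 ± 1542 bases in no UV libraries (exact permutation p = 0.867, n = 4 and 2).

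Within their own lists, the best DDB2 peaks of all 4 UV libraries stood at higher percentiles than that of no UV replicate 1. In 3 of the 4 the percentile was also above that of no UV replicate 2. The deposited score of a peak is the authors' own and its kind is not stated, so scores were used only for order within a list. UV replicate 1's long peak had the highest score of its 562 peaks. The best DDB2 peak was number 28 of 228 in UV replicate 2, number 8 of 449 in UV replicate 3 and number 39 of 677 in UV replicate 4. In no UV replicate 1 the best stood at place 73 of 433 with 258 peaks sharing its score, and in no UV replicate 2 at place 62 of 587, a place shared by 2 DDB2 peaks. As percentiles, with tied peaks counted as 0.5, these were 99.9, 87.9, 98.3 and 94.3 with UV and 53.6 and 89.3 without. UV libraries averaged 95.1 ± 5.34 and no UV libraries 71.4 ± 25.2 (exact permutation p = 0.133, n = 4 and 2). By place alone, not one of the planned tests, each UV library stood above both no UV libraries (exact permutation p = 0.0667, n = 4 and 2). That is the smallest p the test allows, and places depend on the length of the list, which percentiles scale for.

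The size of the percentile gap depended mostly on 1 no UV library and on how its ties were counted. Without no UV replicate 1 the UV mean was 5.86 percentile points higher (exact permutation p = 0.6, n = 4 and 1), against 23.7 with it and 41.5 without no UV replicate 2 (exact permutation p = 0.2, n = 4 and 1). Other ways to count ties were chosen after seeing the data. With tied peaks counted as lower, no UV replicate 1 stood at 83.4 and the UV mean was 8.76 points higher (exact permutation p = 0.2, n = 4 and 2). With ties not counted, that library stood at 23.8 and the UV mean was 38.6 points higher (exact permutation p = 0.133, n = 4 and 2). The other DDB2 peaks of a library were often low in its list. Outside UV replicate 1, the 16 peaks ranged from percentile 5.66 to 98.3, with a median of 53.7, and 2 were above 90. Low ones occurred in both groups, such as 9.87 in UV replicate 2, 13.1 in UV replicate 3, 5.66 in no UV replicate 1 and 6.56 in no UV replicate 2. In UV replicate 4 all 3 peaks were between 84.6 and 94.3.

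**Figure D2:**
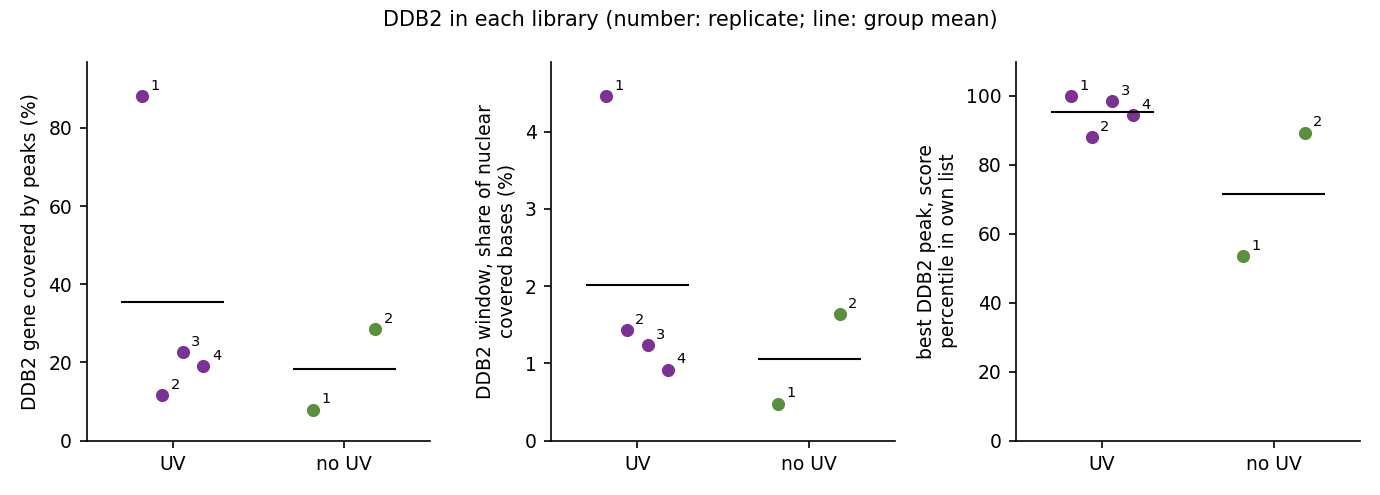
Share of the DDB2 gene covered by peaks, share of all nuclear covered bases that lie in the DDB2 window, and score percentile of the best DDB2 peak within its own list, each in percent or percentile points. Points are libraries numbered by replicate, UV left and no UV right, and lines are group means. UV replicate 1 stands far above the others in the first and second panels, and the groups overlap in all 3.

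**Figure D3:**
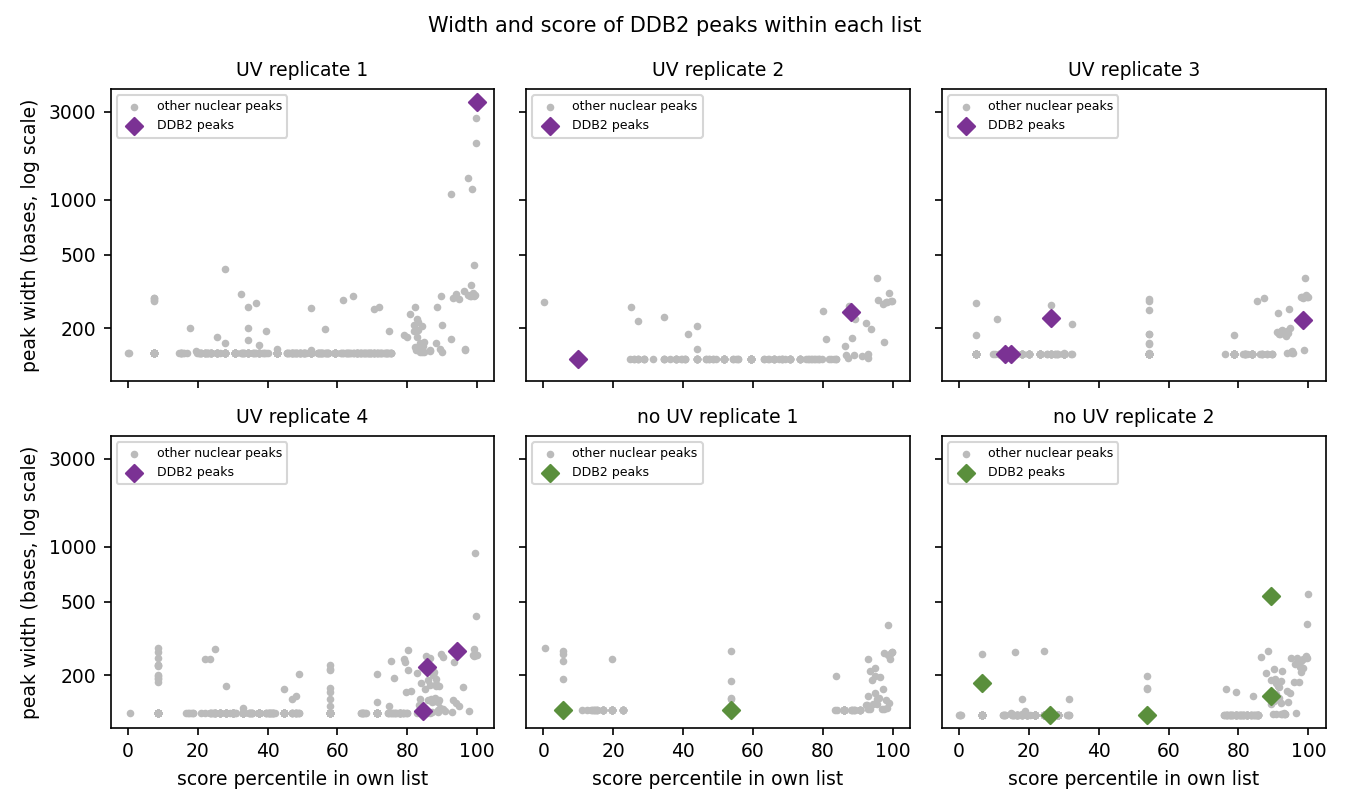
Width of every nuclear peak in bases on a log scale against the percentile of its score within its own list, one panel per library. Diamonds are DDB2 peaks and grey points are the other nuclear peaks. In UV replicate 1 the DDB2 peak is both the widest and the highest-scoring, and in the other libraries DDB2 peaks lie among the rest in score, with some above the floor of width.

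Along the gene, the middle part was the one where the groups did not overlap, in a division chosen after the peaks had been seen. Divided into 3 equal parts from the lower-coordinate end, the gene had 700, 0, 336 and 50 covered bases in the first part in UV replicates 1 to 4 and 0 and 586 in no UV replicates 1 and 2. In the middle part the values were 1086, 236, 257 and 240 bases with UV and 129 and 71 without. Each UV library was thus above each no UV library there. Of the 27432 protein-coding genes that held for DDB2 alone (0.00365%), but it needs a peak in all 4 UV libraries, which 3 genes had, and the other 2 have theirs outside their middle part. Nothing is read from that share. Without the long peak of UV replicate 1, the UV values lay between 236 and 257 bases, still above both no UV values. UV libraries averaged 455 ± 421 bases there, an excess of 355 bases over no UV libraries (exact permutation p = 0.4, n = 4 and 2). In the far part the values were 1086, 145, 145 and 329 bases with UV and 129 and 275 without, and the groups overlapped. The first part averaged 271.5 ± 322 bases in UV libraries and 293 ± 414 in no UV libraries (exact permutation p = 1, n = 4 and 2).

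Different libraries marked different bases of DDB2. Of the 3601 bases of the window, 3474 were covered in at least 1 library, 1092 of them by UV replicate 1 alone. In at least 3 libraries 581 bases were covered, in 4 libraries 146, and in 5 or 6 libraries 0. The 146 bases formed a pair of stretches. One, of 80 bases at 23731486 to 23731565, was covered in UV replicates 1, 3 and 4 and in no UV replicate 2. The other, of 66 bases at 23732665 to 23732730, was covered in UV replicates 1, 2 and 4 and in no UV replicate 1. Each of these 2 most shared stretches was therefore covered by 3 UV libraries and 1 no UV library. UV replicate 1 covered 93.9% of the window, so its part in them was nearly given, and the UV libraries are 4 against 2. No preference for UV is read from these stretches.

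By group, 2103 bases were covered with UV only, 93 without UV only and 1278 in both. UV replicate 1 alone covered 93.9% of the window, so few bases were left to be covered without UV only. The UV lists are also 4 against 2, and no excess with UV is read from these counts. The no UV libraries together covered 1371 bases, of which 1278 lay inside the long peak of UV replicate 1. They shared 0 bases with each other. UV replicates 2 to 4 together covered 1449 bases, of which 438 were also covered without UV and 1011 were not. Conversely, of the 1371 bases of the no UV libraries, only these 438 were covered in UV replicates 2 to 4. At least 2 of these 3 libraries covered 289 bases, and 143 of those, at 23732522 to 23732664, were free of no UV peaks. That stretch was covered in UV replicates 1, 2 and 4.

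Bases shared by a pair of libraries depended on UV replicate 1. Its peak took in 100% of the covered bases of UV replicates 2, 3 and 4 and of no UV replicate 1, and 91.6% of those of no UV replicate 2. These were 11.3%, 21.8%, 18.3%, 7.63% and 30.2% of its own covered bases. Among the 10 pairs without it, 4 shared no base and the most shared was 261 bases, between UV replicate 3 and no UV replicate 2, which were 35.4% of the first and 23.5% of the second. UV replicates 2 and 4 shared 209 bases, 54.9% and 33.8% of their covered bases. UV replicates 3 and 4 shared 80, which were 10.8% and 12.9%, and UV replicates 2 and 3 shared none. UV replicate 2 shared 102 bases with no UV replicate 1, which were 26.8% and 39.5%. Over all pairs, 1 of the 6 UV pairs, the no UV pair and 2 of the 8 pairs across groups shared no base.

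The mean Jaccard index, shared bases over bases covered in either library, was 14.0% over the 6 pairs of UV libraries and 0 for the no UV pair. The mean over all pairs within a group exceeded that over the 8 pairs across groups, 11.3%, by 0.717 percentage points (exact permutation p = 1, n = 4 and 2). Without UV replicate 1 the difference was -0.724 points (exact permutation p = 1, n = 3 and 2). Without UV replicate 2 it was -0.295 points and without UV replicate 4 it was -3.79 points (exact permutation p = 1 and 0.6, n = 3 and 2). Without no UV replicate 2 it was 5.32 points (exact permutation p = 0.4, n = 4 and 1).

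**Figure D4:**
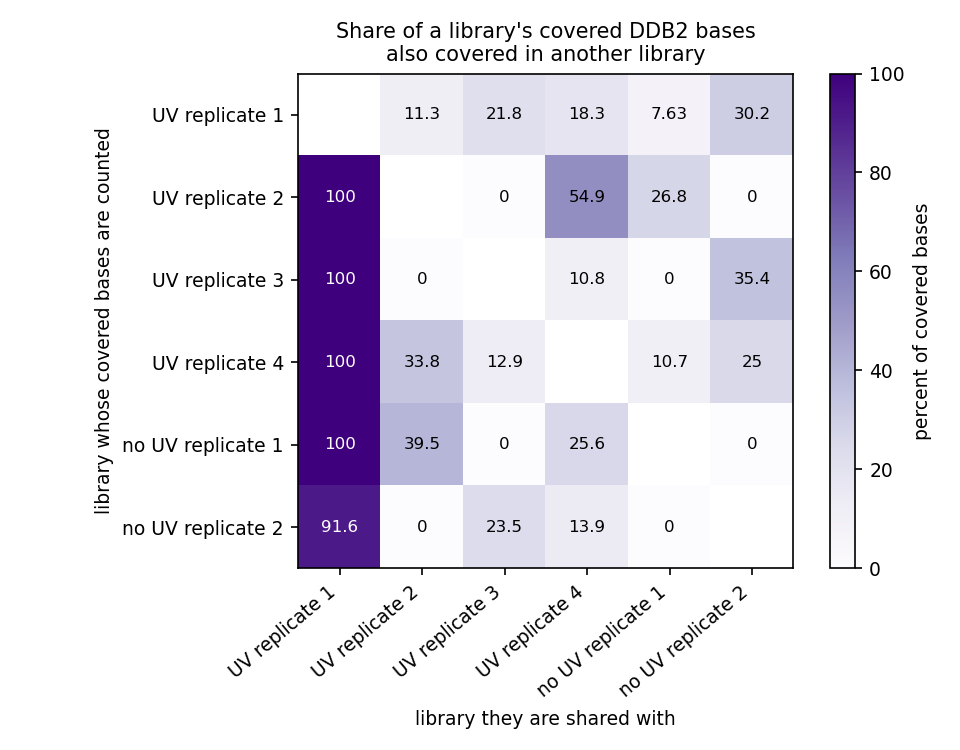
Percent of the covered DDB2 bases of the library in the row that are also covered in the library in the column, UV libraries before no UV libraries on both axes. The column of UV replicate 1 is at 100 or 91.6 throughout, and away from it the values lie between 0 and 54.9.

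The other genes with a peak in all 6 libraries had a different layout. AT3G23460 on chromosome 3 had 1 peak per library at nearly the same place: 304, 278, 296 and 256 bases of it were covered in UV replicates 1 to 4 and 268 and 248 in no UV replicates 1 and 2. Of the 304 bases covered in any library, 248 were covered in all 6, and the mean Jaccard index over the 15 pairs was 90.7% (81.6 to 97.4%). AT5G61520 on chromosome 5 had 107, 99, 107 and 86 covered bases with UV and 92 and 85 without, 85 of them in all 6 libraries, with a mean index of 88.5% (79.4 to 100%). Its peaks reached as far as 193 bases past the gene's end, and only their part within the gene entered these values. In DDB2 the same index, taken within the gene span, was 12.5% (0 to 28.3%), 4 of the 15 pairs shared no base, and 0 bases were covered in all 6. DDB2 thus had 16 peaks spread over 2965 bases, where each of these genes had 6 peaks piled on 1 spot. This is a description of 3 genes, with no test.

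**Figure D5:**
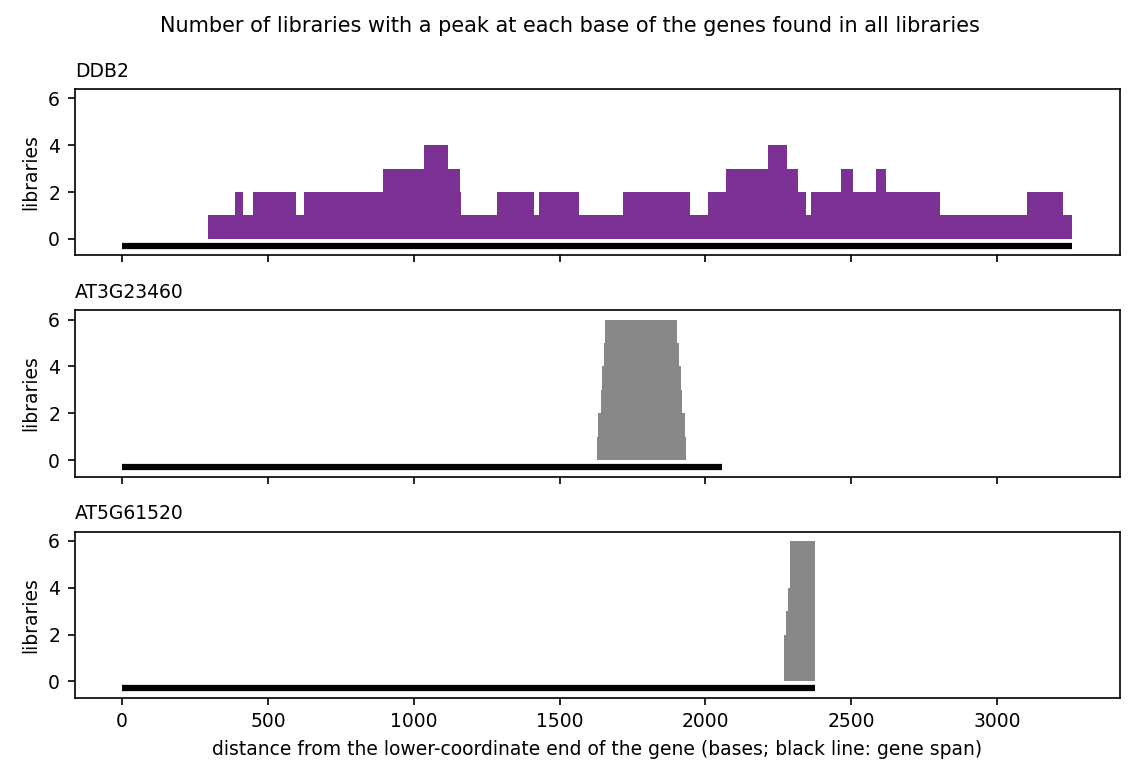
Number of libraries with a peak at each base of the 3 protein-coding genes that have a peak in all 6 libraries, by distance in bases from the lower-coordinate end of the gene, with the gene span as a black line. AT3G23460 and AT5G61520 each have 1 narrow block that reaches 6 libraries, while DDB2 is covered along nearly its whole length by at most 4. Only bases within the gene spans are drawn, and peaks on AT5G61520 and DDB2 run past the gene's end.

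By covered bases per library, the gene most like DDB2 was AT1G77230 on chromosome 1, among 5 other genes with a peak in at least 4 libraries. It had 1821, 0, 196 and 124 covered bases in UV replicates 1 to 4 and 245 and 481 in no UV replicates 1 and 2, a mean absolute difference from DDB2 of 489 bases over the 6 libraries. DDB2 had 2872, 381, 738 and 619 bases with UV and 258 and 932 without. Both genes were thus covered most in UV replicate 1 and next in no UV replicate 2. The remaining 4 were further away, AT3G23460 at 695 bases, MEE27, a histone demethylase gene also named JMJ15, at 835 bases, AT5G61520 at 871 bases and TPPI, a trehalose-6-phosphate phosphatase gene, at 876 bases. None of these 4 had over 304 covered bases in any library.

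The long DDB2 peak was 1 of 6 nuclear peaks of at least 1000 bases, all in UV replicate 1. The others, singled out after their values were seen, were 2783 bases wide over AT2G45620, 2032 over AT1G77230 and MIR402, and 1306, 1141 and 1069 over DML3, a gene for a DNA glycosylase of active demethylation. The 2783-base peak overlapped peaks of UV replicates 3 and 4 and the 2032-base peak those of UV replicates 3 and 4 and both no UV libraries. The 1306-base DML3 peak overlapped 1 in no UV replicate 2 and the 1141-base and 1069-base peaks overlapped none. The DDB2 peak overlapped peaks of all 5 other libraries, whose covered bases in it sum to 3016. The widest nuclear peaks elsewhere were 375, 374 and 922 bases in UV replicates 2 to 4 and 375 and 551 bases in no UV replicates 1 and 2. Wide peaks on these genes moved with UV replicate 1, and the part of that library's depth or preparation in the length of the DDB2 peak was not tested.

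The rest of the repair pathway was nearly free of peaks. Of 25 other genes from 6 lists of repair and partner genes, 1 had a peak in any library, where 5.29% of all nuclear protein-coding genes had one. Damage recognition had 0 of 7 others, among them DDB1A and DDB1B, the partners of DDB2, RAD4 and its helper CEN2. The ligase genes CUL4, RBX1 and DET1 had 0 of 3. Genes for unwinding and incision had 0 of 6, namely the helicase genes UVH6, XPB1 and XPB2 and the nuclease genes UVH3, UVH1 and ERCC1. Transcription-coupled repair had 0 of 3, with ATCSA-1, AT1G19750 and CHR8. Small RNA partners had 0 of 4, with AGO1, which binds small RNAs, and NRPD1A, RDR2 and DCL3, which make them. Of the photolyase genes, PHR1, which acts on CPDs, had none. UVR3, which acts on the other main UV photoproduct, carried 1 on chromosome 3 at 5295109 to 5295255, in the list of UV replicate 1. It was 147 bases wide, the floor of its list, at percentile 52.4. The median length of the 26 genes, DDB2 included, was 4360 bases, against 3258 for DDB2. With 5.29% of all such genes hit, 1 of 25 is near the background and is no result about these genes.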

How the data were processed

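Genomic DNA was immunoprecipitated with an anti-CPD antibody. The submitters' processing notes name CASAVA 1.8.2, Bowtie, MACS2 and TAIR10 without roles or settings. Per the file headers and peak names, the authors made 1 peak list per library, set against pooled input, and converted it to GFF. The value of each peak is a score deposited by the authors, of unstated kind. Genes came from RefSeq's TAIR10.1 table, whose nuclear coordinates were taken to be those of TAIR10, which was not tested against sequence. Covered bases, ranks within lists and shared bases were computed with Python 3.11.15, numpy 2.4.6 and pandas 2.3.3, and drawn with matplotlib 3.10.9. The code was tested on simulated data with peaks planted on 200 genes. Group differences are UV minus no UV, with a two-sided exact permutation test on means. DDB2, the gene lists and the tests were chosen with earlier results of these data known. The rule for named genes gave values for DDB2, genes of the flanks and lists with a peak, and the 5 genes nearest to DDB2 in covered bases among those hit in at least 4 libraries. Outside it, neighbours and list members without a peak are named only, and genes under the widest peaks were chosen after their values were seen. Alternatives were single libraries left out, the 200 highest-scoring peaks, peaks above the median score, the RefSeq span as window, peak midpoints, organelles included, flanks of 10 and 50 kb, another overlap measure, a replicate block and other handling of ties. 1 item of the gene lists is not reported here. No sequence is shown, since none was used here.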

Additional observations from a re-analysis of the deposited data

Results flagged for a closer look

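UV replicate 1 stood far from the other 3 UV libraries in 4 of the DDB2 measures. Its covered bases of the window were 3381, with the others between 381 and 738, and its share of the gene covered was 88.2%, with the others between 11.7% and 22.7%. Its widest DDB2 peak was 3381 bases, with the others between 227 and 272, and its share of nuclear covered bases in the window was 4.46%, with the others between 0.918% and 1.43%. These measures rest on the same peak, so they are 1 observation. The gap to the nearest other UV library was 0.881 of the group's range for covered bases, 0.857 for the share of the gene, 0.986 for the widest peak and 0.856 for the nuclear share. Each is past Dixon's 95% critical value for groups of 4, a value that about 5% of groups pass by chance.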

How the results depend on the processing

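Read depth is unknown, each group is small and no test could pass 0.05, so directions are all that the alternatives can be compared on. Of 82 recomputed differences, 62 kept the direction they had, 9 turned, 10 for the flanks stayed at 0 and 1 moved off 0. Leaving out 1 library at a time gave a difference, UV minus no UV, from -106 to 1021.8 covered bases, -0.481 to 27.5 points of the gene covered, -84 to 967 bases for the widest peak, -2.5 to 0.5 peaks, 5.86 to 41.5 percentile points for the best score and 0.138 to 1.53 points of the nuclear share. For the same-group minus cross-group index it gave -3.79 to 5.32 points, and for the flanks 0 throughout. Covered bases, gene share and widest peak turned without UV replicate 1. The number of peaks turned without no UV replicate 2, and was 0.5 higher with UV when only the 200 highest-scoring peaks, or only those above the median score, were kept. In the no UV lists both cuts fell among tied scores. They dropped the best DDB2 peak of no UV replicate 1, tied among 258 peaks, and 1 of no UV replicate 2, tied among 259. The cut at 200 also dropped 1 of UV replicate 2, tied among 43. Whether the number turns with tied peaks kept was not tested. The index also turned without UV replicate 1 (-0.724), UV replicate 2 (-0.295) and UV replicate 4 (-3.79). Flanks of 50 kb gave -14.25 bases, from 1 peak each in UV replicate 3 and no UV replicate 2. The best score could not be compared among the 200 highest or among peaks above the median. There no UV replicate 1 had no DDB2 peak left once its tied best peak was dropped, though that peak scored no lower than others kept at 200. With ties not counted it was 38.6 points higher with UV (exact permutation p = 0.133, n = 4 and 2). The replicate numbers 1 and 2 occur in both groups without a label that pairs them. With these numbers as a replicate block, the difference was 1195.5 covered bases, 31.7 points of the gene and -2 peaks (exact sign-flip p = 1, 1 and 0.5, n = 2 pairs, where 0.5 is the smallest p), and the direction of these 3 did not turn. The cause of these changes was not tested.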
